A study of Homo sapiens with 22 samples.

Results

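The genes described here encode the proteins of the mitochondrial ribosome. They were taken by symbol, as MRPL (large subunit) or MRPS (small subunit) followed by a digit, from the expression tables of 2 RNA sequencing experiments in Ls174T, an established human colon carcinoma line. The rule gave 77 of 25244 genes in the HUWE1 experiment and the same number of 25791 genes in the MIZ1 experiment. Of these, 76 encode proteins, 47 with MRPL and 29 with MRPS symbols, and 1 is the antisense RNA MRPL23-AS1. Rows with pseudogene names, 28 in the HUWE1 and 26 in the MIZ1 experiment, were left out.

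BI8622 is a small molecule inhibitor of HUWE1, a HECT-domain ubiquitin ligase, and the study asked how its inhibition changes the expression of target genes of the transcription factor MYC. In the HUWE1 experiment, cells with the pLKO vector alone (labelled pLKO-empty and called empty-vector cells) or pLKO-shHUWE1, a lentiviral shRNA selected with puromycin, received DMSO or 20 µM BI8622 for 16 h. In the MIZ1 experiment all groups carried pIND-shMiz1, an shRNA construct that doxycycline switches on. Uninduced cells had no doxycycline, induced cells had 1 µg/ml of it over 4 days, and each was given DMSO or BI8622. The 4 settings in which BI8622 was compared with DMSO (empty-vector, shHUWE1, uninduced and induced cells) are called arms, and values for the 4 arms are given in this order. Each of the 4 groups of an experiment has 2 libraries, which makes 16 in all, and whether these are separate cultures is not stated. Cells for the MIZ1 depletion went through a sorting step according to the methods of the study, and all groups come from 1 line.

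Mitochondria translate the few messenger RNAs of their own genome on a ribosome that is distinct from the one in the cytosol. Its RNAs are made inside the organelle, whereas all of its proteins are encoded in the nucleus and imported, so that both genomes have to contribute to each particle. Many of its proteins have a bacterial homologue, and the others were added during the evolution of mitochondria. The products translated there are subunits of the respiratory chain and of the ATP synthase.

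The tables used here give, for a pair of groups, the mean level of a gene in CPM, the read count scaled to the size of the library, on the log2 scale. The level of each group, a mean of 2 libraries, was solved from these pair means. Values per library were not used here, so that no difference below has a replicate check, a standard deviation or a p-value. Differences are log2 ratios of group levels, and genes are counted where they were past 0.32 in size, which is 20% lower or 25% higher, beside the share of all genes with at least 5 CPM in every pair mean (16469 in the HUWE1 and 16408 in the MIZ1 experiment). All 76 protein genes had that level, with a lowest pair mean of 9.79 CPM in the HUWE1 experiment and of 10.3 CPM in the MIZ1 experiment. An approximate counting error is given for single genes, on the assumption of about 8.54e+06 and 8.34e+06 reads per library. It covers counting only, and the spread between libraries would come on top of it.

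The targeted genes were lower in the depleted groups. HUWE1 was at 420 CPM with DMSO and 460 CPM with BI8622 when the vector was empty, and at 218 and 176 CPM with shHUWE1. ZBTB17, which encodes MIZ1, was at 15.7 and 22.6 CPM in uninduced cells and at 11.0 and 11.4 CPM in induced cells. Of the epithelial markers, 10 of 10 reached 5 CPM in some group, with a summed level of 1729 to 3049 CPM. The fibroblast markers (1 of 6 at 5 CPM, summed 3.47 to 6.23 CPM), the leukocyte markers (0 of 5, summed 2.12 to 4.85 CPM) and the endothelial markers (1 of 4, summed 1.252 to 8.62 CPM) were near the floor.

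In DMSO, the summed level of the 76 genes was 4033 CPM in empty-vector cells, 3859 CPM in shHUWE1 cells, 3967 CPM in uninduced cells and 3914 CPM in induced cells. With BI8622 it was 3422, 3320, 3079 and 3137 CPM in the same order. Every BI8622 group was therefore below every DMSO group, and how often the sums of other sets of genes are separated in this way was not counted. Averaged over the 8 groups, single genes ranged from 10.54 to 129 CPM with a median of 39.2 CPM. MRPS35 and MRPS25 of the small subunit, at 129 and 116 CPM, and MRPL19, MRPL37 and MRPL3 of the large subunit, at 116, 114 and 112 CPM, had the most reads. MRPL54, MRPL53, MRPL55, MRPS36 and MRPL36 had the fewest, with 10.54, 11.5, 12.2, 15.0 and 15.9 CPM. Per kilobase of the annotated canonical transcript, the order was another. MRPL33, at 88.0 CPM per kb, and MRPL51 and MRPL37, at 79.5 and 77.1 CPM per kb, stood highest among the 74 genes with a length. MRPL42 and MRPS33 stood lowest, with 5.14 and 5.83 CPM per kb on long annotated transcripts, so the isoform in use would move these values.

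With BI8622 most of the mitochondrial ribosomal protein genes were lower than with DMSO, in all 4 arms. The median difference was -0.24 in empty-vector, -0.23 in shHUWE1, -0.32 in uninduced and -0.28 in induced cells, which are ratios of 0.846, 0.852, 0.8003 and 0.824. Over all genes the medians were -0.0084, -0.038, 0.015 and -0.0073. The members were below 0 in 67, 60, 64 and 58 of 76 cases, against 51.2%, 55.0%, 48.5% and 50.7% of all genes.

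In empty-vector cells, 27 of the 76 genes (35.5%) were lower past 0.32, where 16.6% of all genes were, and 1 was higher, where 17.9% of all genes were. In shHUWE1 cells, 23 (30.3%) were lower beside 17.7% of all genes, and 0 were higher beside 13.2%. In uninduced cells, 38 (50%) were lower beside 22.9% of all genes, and 1 was higher beside 23.9%. In induced cells, 35 (46.1%) were lower beside 22.7% of all genes, and 1 was higher beside 21.2%. In each arm the members thus had a larger share of lower genes than the whole table and a smaller share of higher ones. Many values lay close to this limit. In empty-vector cells MRPL41 was just past it at -0.322 and MRPL38 just within it at -0.318, and in induced cells the nearest genes on each side were MRPL46 at -0.323 and MRPL21 at -0.321.

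**Figure D1:**
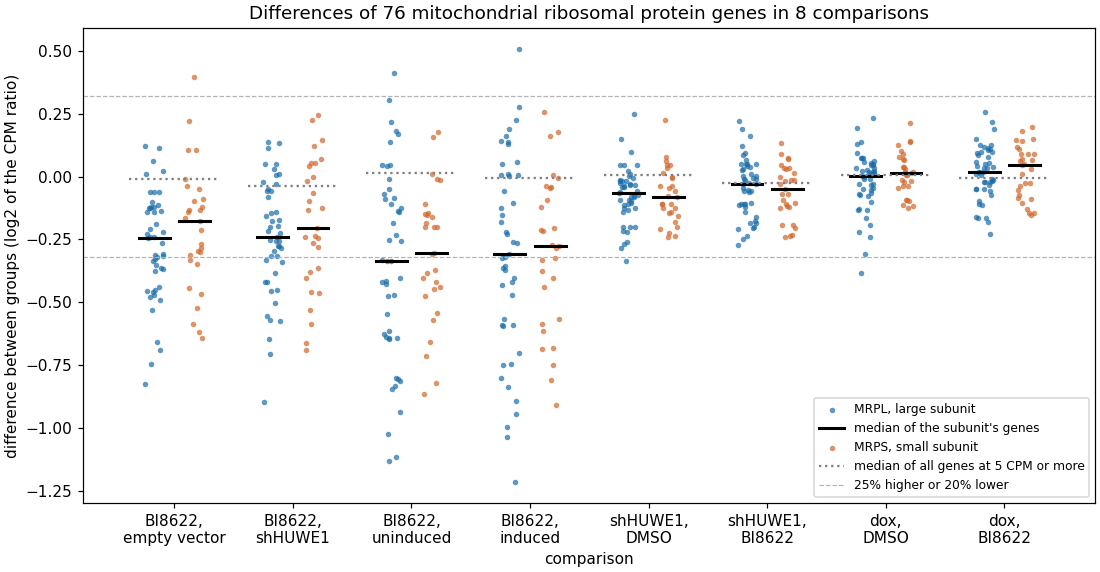
Difference of each of the 76 genes between 2 groups (vertical axis, log2 of the CPM ratio) in the 8 comparisons (horizontal axis; dox, doxycycline), with blue points for MRPL and orange points for MRPS genes, black bars for their medians, dotted lines for the median of all genes and dashed lines at 0.32 above and below 0. In the 4 BI8622 comparisons the black bars lie between -0.18 and -0.34, below the dotted lines, and in the 4 depletion comparisons they lie between -0.080 and 0.044.

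A set of 15 genes was lower past 0.32 in all 4 arms, which is 19.7% of the members, beside 9.95% of the 15877 genes at the minimum in both tables. These were MRPL4, MRPL12, MRPL14, MRPL16, MRPL17, MRPL18, MRPL20, MRPL27, MRPL36, MRPL49, MRPS2, MRPS12, MRPS17, MRPS26 and MRPS34, with 10 of the large and 5 of the small subunit. No member was higher past this limit in all 4 arms, beside 8.58% of all genes. Regardless of size, 51 genes were below 0 in all 4 arms (33.3% of all genes were), 6 were above 0 in all 4 (30.5% of all genes), and 19 were of mixed direction.

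MRPL49, a large subunit protein without a bacterial homologue (11:64889655-64894843, hg19, plus strand), had the lowest mean difference of the members. Its level was 76.3 CPM with DMSO and 48.4 CPM with BI8622 in empty-vector cells, 69.6 and 42.6 CPM in shHUWE1 cells, 88.4 and 40.4 CPM in uninduced cells, and 86.5 and 37.3 CPM in induced cells. All 4 BI8622 groups were below all 4 DMSO groups. The share of all genes separated in this way was not counted, and this gene was named for its low difference. The differences were -0.66, -0.71, -1.13 and -1.21, with a counting error of 0.064 to 0.069. MRPL14, which sits at the interface of the subunits (6:44081188-44095189, minus strand), was at 38.1 and 21.5 CPM in empty-vector cells, 37.1 and 19.9 CPM in shHUWE1 cells, 29.3 and 15.3 CPM in uninduced cells, and 29.1 and 15.1 CPM in induced cells. Its differences of -0.82, -0.90, -0.94 and -0.95 lay close together.

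MRPL18, a protein of the central protuberance (6:160210844-160219468, plus strand), was at 74.6 and 46.3 CPM in empty-vector cells, 75.1 and 48.0 CPM in shHUWE1 cells, 89.96 and 44.2 CPM in uninduced cells, and 78.7 and 39.5 CPM in induced cells. Its groups did not overlap by treatment, a pattern whose share over all genes was not counted. Its differences were -0.69, -0.65, -1.03 and -0.995. MRPL17, near the exit of the peptide tunnel, was at 52.6 and 31.3 CPM in empty-vector cells, 49.7 and 33.5 CPM in shHUWE1 cells, 51.3 and 28.5 CPM in uninduced cells, and 51.6 and 30.7 CPM in induced cells. Here the BI8622 groups kept to a narrow band, 28.5 to 33.5 CPM, below DMSO groups of 49.7 to 52.6 CPM. This gene too was named for its low difference, and the share of all genes separated in this way was not counted. MRPL50 differed more by experiment, with -0.36 and -0.32 in the HUWE1 experiment and -1.11 and -1.03 in the MIZ1 experiment. Its levels were 54.8 and 42.6 CPM in empty-vector cells, 55.0 and 44.1 CPM in shHUWE1 cells, 57.4 and 26.5 CPM in uninduced cells, and 52.6 and 25.7 CPM in induced cells.

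In the small subunit the lowest mean differences were those of MRPS34, MRPS17 and MRPS2. MRPS34, a mitochondria-specific protein that binds the ribosomal RNA of the small subunit (16:1821891-1823151, minus strand), was at 94.6 and 63.0 CPM in empty-vector cells, 84.8 and 53.5 CPM in shHUWE1 cells, 86.0 and 48.7 CPM in uninduced cells, and 80.3 and 45.9 CPM in induced cells. All of its BI8622 levels were below all of its DMSO levels, with differences of -0.59, -0.66, -0.82 and -0.81. MRPS17, an RNA-binding protein with a bacterial homologue, was low in level and went from 25.3 to 16.2, 22.3 to 16.2, 20.1 to 11.0 and 22.05 to 11.7 CPM in the 4 arms. MRPS2, also shared with bacteria, went from 78.8 to 51.4, 74.5 to 49.6, 75.95 to 46.3 and 76.7 to 51.1 CPM. For both genes, and for MRPS34, the groups did not overlap by treatment, and the share of all genes with this pattern was not counted. These genes were named for their low differences. The differences ranged from -0.91 to -0.46 for MRPS17 and from -0.71 to -0.59 for MRPS2.

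**Figure D2:**
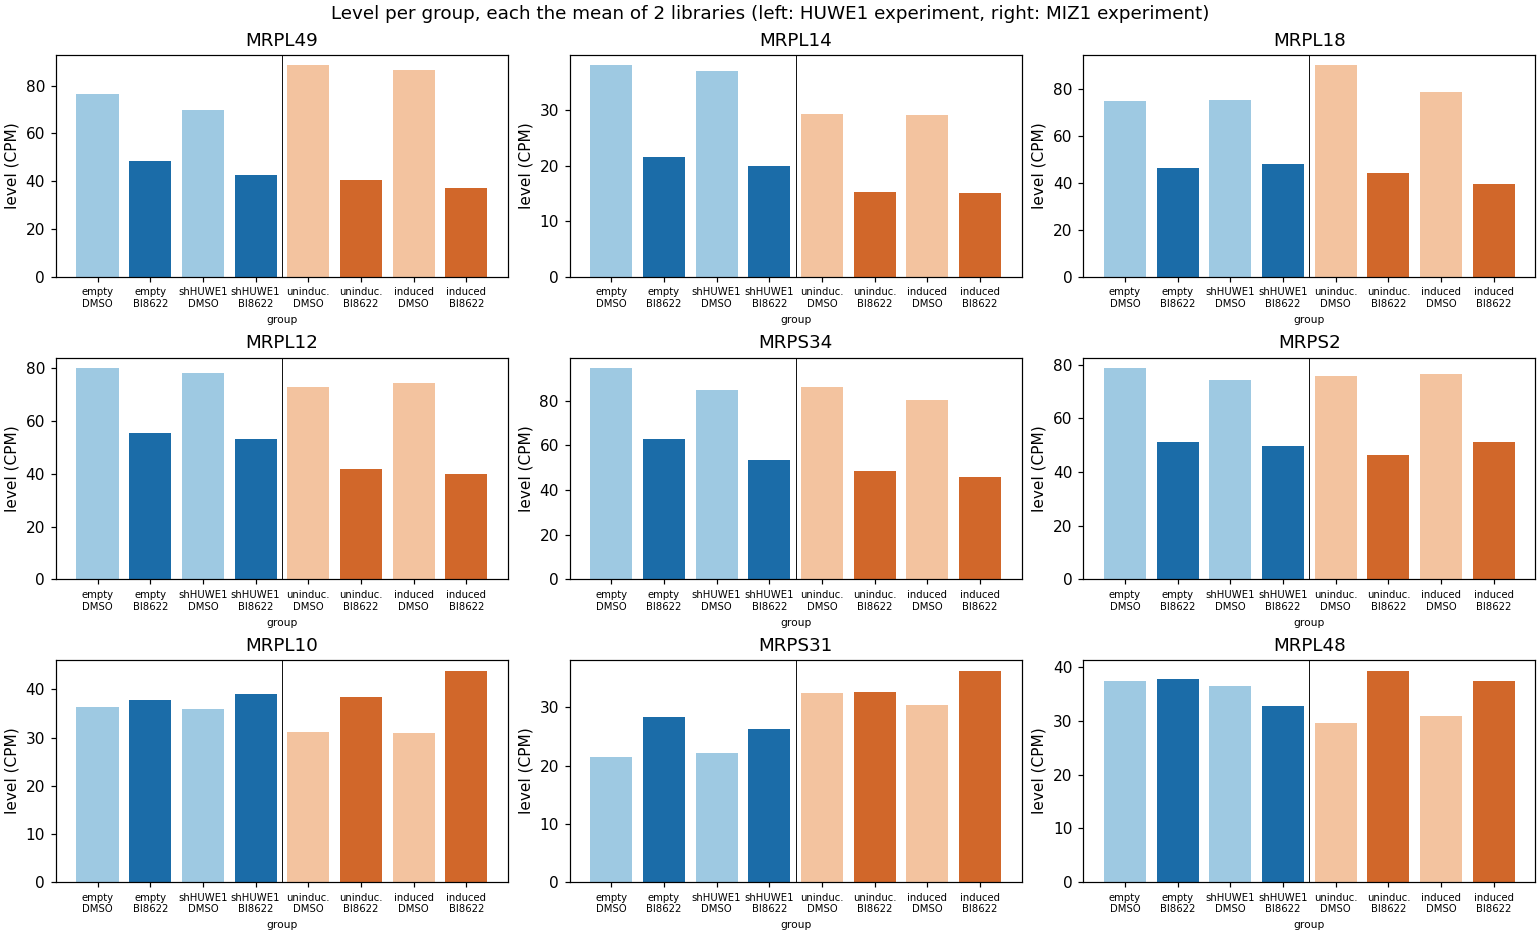
Level in CPM (vertical axis, from 0, with a scale of its own in each panel) of 9 genes in the 8 groups (horizontal axis; dox, doxycycline), each bar a mean of 2 libraries without an error bar, in blue for the HUWE1 and in orange for the MIZ1 experiment, pale for DMSO and dark for BI8622. In MRPL49, MRPL14, MRPL18, MRPL12, MRPS34 and MRPS2 each dark bar is below the pale bar of its arm, in MRPL10 and MRPS31 it is above, and MRPL48 differs by arm, from -0.16 to 0.41 on the log2 scale.

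Genes of both subunits were lower with BI8622. The median difference of the MRPL genes was -0.24, -0.24, -0.34 and -0.31 in the 4 arms, and that of the MRPS genes was -0.18, -0.20, -0.30 and -0.28. The difference of the medians, large minus small, was -0.067, -0.038, -0.030 and -0.032, and whether the subunits differ was not tested. With MRPS18A and MRPS30 counted in the large subunit, where they are placed, and MRPS36 left out, it was -0.0017 in empty-vector cells. Lower past this limit were 19, 14, 25 and 22 of the 47 MRPL genes (40.4%, 29.8%, 53.2% and 46.8%), and 8, 9, 13 and 13 of the 29 MRPS genes (27.6%, 31.0%, 44.8% and 44.8%). Over all genes the shares were 16.6%, 17.7%, 22.9% and 22.7%. When the 4 differences of each gene were averaged first, the order of the subunits turned, with a median of -0.23 for the large and -0.26 for the small subunit. The summed level of the MRPL genes went from 2350 to 1949 CPM in empty-vector cells, 2242 to 1886 CPM in shHUWE1 cells, 2314 to 1732 CPM in uninduced cells and 2257 to 1763 CPM in induced cells. That of the MRPS genes went from 1683 to 1473, 1618 to 1435, 1653 to 1347 and 1657 to 1375 CPM.

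The genes of the stalk of the large subunit, where translation factors bind, had differences of both signs. MRPL12, the stalk protein itself, was at 79.95 and 55.4 CPM in empty-vector cells, 78.1 and 53.2 CPM in shHUWE1 cells, 72.7 and 41.6 CPM in uninduced cells, and 74.4 and 40.0 CPM in induced cells, and was lower in each arm. MRPL11, at the base of the stalk, was also lower in each arm, by -0.49, -0.28, -0.64 and -0.70. MRPL10, which holds MRPL12 on the particle, was higher in each arm (17:45900638-45908907, minus strand). Its level was 36.3 and 37.9 CPM in empty-vector cells, 36.0 and 38.98 CPM in shHUWE1 cells, 31.1 and 38.5 CPM in uninduced cells, and 30.9 and 43.9 CPM in induced cells. The differences of MRPL10 were 0.060, 0.11, 0.31 and 0.51, with counting errors of 0.081 to 0.085, so those of the HUWE1 experiment were within 2 counting errors of 0, and the one in induced cells was past the limit.

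Around the peptide tunnel, where MRPL17 described above also lies, the values of the genes named here were spread as well. These genes are a choice and not all proteins of the tunnel. MRPL4, whose bacterial homologue lines the tunnel, had differences of -0.37, -0.57, -0.80 and -0.75, whereas MRPL24 had -0.13, -0.057, -0.25 and -0.15. MRPL23 at the tunnel exit had -0.13, -0.082, 0.18 and 0.16. MRPL45, which lies at the exit next to the inner membrane, was above 0 in all 4 arms, with 0.12, 0.14, 0.17 and 0.22. In the core of the large subunit, MRPL3 had -0.23, -0.17, -0.63 and -0.56, and MRPL2 had -0.31, -0.28, -0.14 and -0.056, so that the larger value was in the MIZ1 experiment for MRPL3 and in the HUWE1 experiment for MRPL2. The mitochondria-specific proteins of the central protuberance also differed among each other. MRPL46 had -0.31, -0.20, -0.19 and -0.32, MRPL38 had -0.32, -0.25, 0.045 and 0.048, and MRPL48 had 0.012, -0.16, 0.41 and 0.28.

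Of the small subunit, MRPS12, the protein of the decoding centre, was at 29.8 and 21.96 CPM in empty-vector cells, 27.0 and 18.7 CPM in shHUWE1 cells, 31.1 and 22.8 CPM in uninduced cells, and 33.1 and 20.6 CPM in induced cells. It was lower past this limit in each arm. MRPS7 had -0.30, -0.40, -0.54 and -0.61, and MRPS16, 1 of the first genes known for an inherited defect of mitochondrial translation, had -0.21, -0.24, -0.38 and -0.28. MRPS22 and MRPS27 had the small values of -0.051, -0.00090, -0.20 and -0.12, and of -0.18, -0.065, -0.15 and -0.092. The values of the 3 paralogues of bacterial protein S18 had counting errors of 0.062 to 0.10, and whether the paralogues differ was not tested. MRPS18B had -0.31, -0.24, -0.16 and 0.0063, MRPS18C had -0.0091, 0.070, -0.0088 and -0.21, and MRPS18A, which is placed in the large subunit, had -0.098, -0.28, -0.013 and -0.0064. MRPS30, also a protein of the large subunit in spite of its symbol, had -0.14, -0.098, -0.48 and -0.38. MRPS36, which has since been assigned to a metabolic enzyme complex, had -0.16, 0.053, -0.20 and -0.047.

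**Figure D3:**
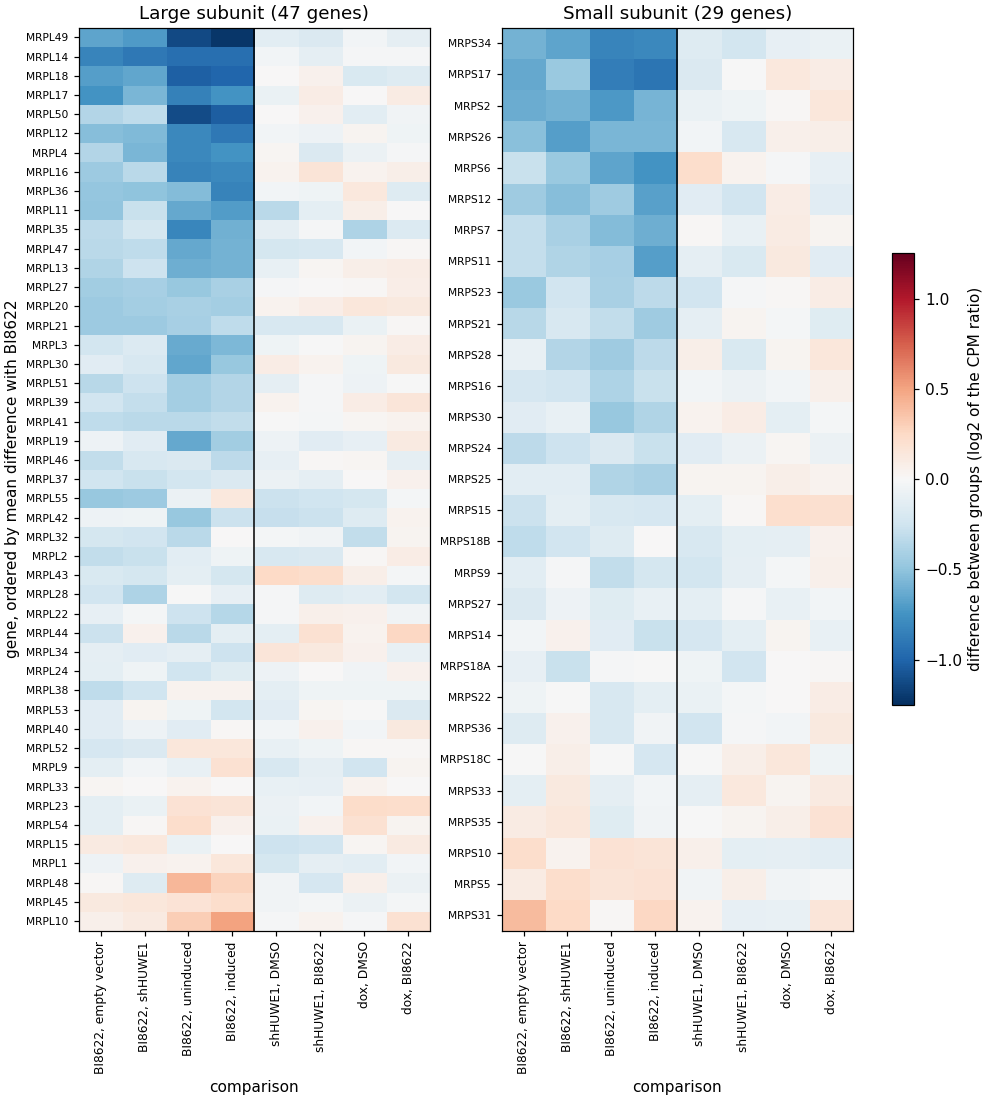
Differences of the 47 MRPL (left) and 29 MRPS genes (right) as colours (log2 of the CPM ratio, blue lower and red higher) in the 4 BI8622 comparisons, left of the black line, and the 4 depletion comparisons, right of it (dox, doxycycline). Rows are ordered by the mean difference with BI8622, from MRPL49 at -0.93 to MRPL10 at 0.25 and from MRPS34 at -0.72 to MRPS31 at 0.23.

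The members classed as having a bacterial homologue had a lower median than those classed as mitochondria-specific in each arm. The 46 conserved genes had medians of -0.29, -0.25, -0.41 and -0.38 in the 4 arms, and the 28 specific genes had -0.20, -0.17, -0.19 and -0.20. Lower past this limit were 19, 18, 26 and 25 of the 46 conserved and 8, 5, 12 and 10 of the 28 specific genes. The shares of all genes were 16.6%, 17.7%, 22.9% and 22.7%. In shHUWE1 cells, the 5 of 28 specific genes were near that share. With the 4 arms averaged, the median was -0.32 for the conserved and -0.20 for the specific genes. Within the large subunit, MRPS30 included, it was -0.40 for 29 conserved and -0.21 for 19 specific genes, and within the small subunit it was -0.28 for 17 and -0.12 for 9. The specific genes still held the lowest single value of the list, that of MRPL49, and the classes overlapped over most of their range, from -0.90 to 0.25 for the mean difference of conserved and from -0.93 to 0.23 for that of specific genes. The classes come from general knowledge of the proteins and leave out MRPS18A and MRPS36, which were put in neither. The difference between the classes was not tested.

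The genes above 0 in all 4 arms were MRPL10, MRPL33, MRPL45, MRPS5, MRPS10 and MRPS31. MRPL33 was level throughout, between 43.3 and 46.8 CPM in the 8 groups. MRPS5, a conserved small subunit protein, went from 76.2 to 82.1, 73.8 to 86.2, 83.2 to 92.8 and 80.6 to 91.2 CPM in the 4 arms. MRPS10 went from 53.3 to 62.1, 55.6 to 57.2, 54.0 to 60.9 and 49.9 to 55.8 CPM. MRPS31, a protein of the head of the small subunit (13:41303264-41345326, minus strand), had the highest difference of the HUWE1 experiment. It went from 21.5 to 28.3 CPM in empty-vector cells, 22.2 to 26.3 CPM in shHUWE1 cells, 32.5 to 32.7 CPM in uninduced cells and 30.4 to 36.3 CPM in induced cells. Its differences were 0.40, 0.25, 0.010 and 0.26, with a counting error of 0.087 to 0.10, and only the first was past this limit. The member past this limit in uninduced cells was MRPL48, which went from 29.5 to 39.3 CPM there and from 36.5 to 32.7 CPM in shHUWE1 cells.

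Within each experiment the responses of the members to BI8622 in both arms were set side by side. In the HUWE1 experiment the response in shHUWE1 cells minus that in empty-vector cells had a median of 0.035 over the members and an SD of 0.113 over genes, where the median counting error of such a difference was 0.110. Over all genes the median was -0.030 and the SD 0.210. The responses of the 76 genes had r = 0.89 between these arms, which share no libraries but were read in the same experiment. In both experiments the levels of the arms were solved together from pair means that span the arms, so error of that step is shared. In the MIZ1 experiment the response in induced minus that in uninduced cells had a median of 0.041, an SD of 0.128 and a median counting error of 0.117, beside a median of -0.013 and an SD of 0.175 over all genes, and r was 0.94.

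In the HUWE1 experiment 4 members (5.26%) differed between the arms by over 2 counting errors, beside 17.4% of all genes. MRPL44, a protein with a fold like that of RNase III, went from 38.1 to 31.7 CPM in empty-vector cells and from 34.9 to 36.2 CPM in shHUWE1 cells, a difference of responses of 0.31 with a counting error of 0.12. MRPL4, MRPS6 and MRPS28 had -0.21, -0.18 and -0.27. In the MIZ1 experiment the members past that limit numbered 5 (6.58%), beside 11.8% of all genes. MRPL32 went from 40.0 to 31.7 CPM in uninduced cells and from 32.3 to 32.5 CPM in induced cells, a difference of 0.34 with a counting error of 0.12. MRPL9, MRPL19, MRPL35 and MRPL42 had 0.28, 0.21, 0.22 and 0.21. The shares were below those of all genes, and none of these differences had a replicate check.

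Between the experiments the order of the genes was kept less closely. The mean response of the arms of each experiment had r = 0.77 over the 76 genes, and the response in the MIZ1 minus that in the HUWE1 experiment had a median of -0.087, with 48 members lower in the MIZ1 experiment. Neither this median nor this count was taken over all genes, so they cannot be set against the whole table. In 34 members (44.7%) both values of the MIZ1 experiment were below both values of the HUWE1 experiment, beside 30.2% of all genes, and in 15 (19.7%) both were above, beside 31.6%. The sign was opposite between the experiments in 4 members (5.26%), beside 9.40% of all genes. The MIZ1 experiment also had larger shares of all genes past this limit, and MYC went from 91.7 to 38.7 CPM in uninduced and 114 to 46.3 CPM in induced cells, beside 123 to 95.2 CPM in empty-vector and 152 to 129 CPM in shHUWE1 cells. The part of either in the difference was not tested. The experiments differ in vector and in the handling of the cells, which cannot be told apart from each other here.

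**Figure D4:**
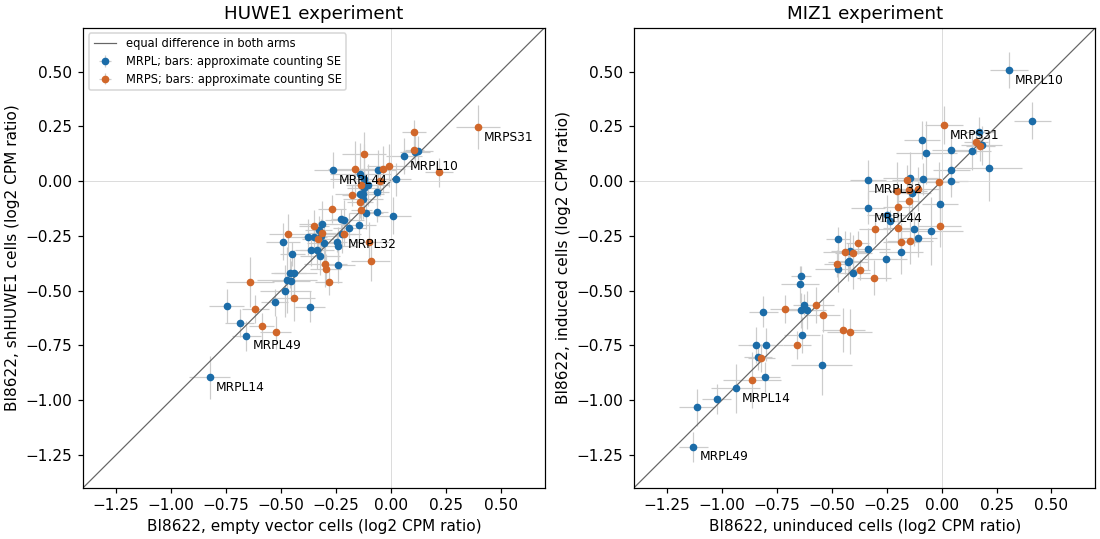
Response to BI8622 of the 76 genes in the arms of each experiment, with empty-vector or uninduced cells on the horizontal and shHUWE1 or induced cells on the vertical axis (log2 of the CPM ratio), MRPL in blue and MRPS in orange, with bars for the approximate counting error. Points lie along the line of equal differences in both panels (r = 0.89 on the left and 0.94 on the right), and they reach below -1 in the MIZ1 experiment only.

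With shHUWE1 or with doxycycline, the depletion comparisons, the differences of these genes were small. These comparisons share their groups with those of BI8622, so their values are not independent of the ones above. With shHUWE1 in DMSO the median was -0.074 and 60 of 76 genes were below 0, beside a median of 0.0060 and 48.5% below 0 over all genes. Past 0.32, 1 member was lower beside 3.73% of all genes and 0 were higher beside 5.94%. The member was MRPL11, at 48.4 CPM in empty-vector and 38.4 CPM in shHUWE1 cells, a difference of -0.33 with a counting error of 0.075. With shHUWE1 in BI8622 the median was -0.030, near that of all genes at -0.027, and 0 members were past this limit in either direction, beside 5.81% of all genes lower and 3.99% higher. The large and small subunit had medians of -0.066 and -0.080 in DMSO and of -0.028 and -0.050 in BI8622.

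All groups given doxycycline carried shMiz1, so the drug itself and the depletion of MIZ1 cannot be told apart here. With doxycycline in DMSO the median was 0.0080, beside 0.0042 over all genes, and 35 members were below 0. Past 0.32, 1 member was lower beside 1.79% of all genes and 0 were higher beside 2.67%. This was MRPL35, a conserved large subunit protein, at 82.6 CPM in uninduced and 63.4 CPM in induced cells, a difference of -0.38 with a counting error of 0.059. Its levels in BI8622 were 47.1 and 41.9 CPM, a difference of -0.17. With doxycycline in BI8622 the median was 0.025, and 0 members were past this limit, beside 3.25% of all genes lower and 1.85% higher. The medians of the large and small subunit were 0.0041 and 0.013 in DMSO and 0.017 and 0.044 in BI8622. Relative to the differences with BI8622, each depletion median was under 0.1 in size.

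The subunit genes that carry other symbols had values like those of the members. The 7 genes DAP3, PTCD3, CHCHD1, AURKAIP1, GADD45GIP1, ICT1 and MRP63 had medians of -0.26, -0.30, -0.37 and -0.36 in the BI8622 arms, with 3, 3, 5 and 4 lower past this limit and 0 higher. Among all genes, 16.6%, 17.7%, 22.9% and 22.7% were lower and 17.9%, 13.2%, 23.9% and 21.2% higher. CHCHD1, of the small subunit, had -0.41, -0.30, -0.80 and -0.78. ICT1, a release factor that became part of the large subunit, had -0.0071, -0.0061, 0.22 and 0.15 and was the gene of this group that was not below 0 in each arm.

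Other genes of mitochondrial translation were taken by their function. Of 29 assembly factors of the ribosome, 11, 11, 11 and 14 were lower past this limit and 1, 1, 0 and 3 were higher, with medians of -0.15, -0.21, -0.28 and -0.21. The RNA methyltransferases FTSJ2 and RNMTL1, which modify the large ribosomal RNA, had -0.83, -0.73, -0.81 and -0.79, and -0.71, -0.72, -0.79 and -0.74, while NOA1, a GTPase, had 0.20, 0.23, 0.17 and 0.28. Of 12 translation factors, 1, 3, 5 and 2 were lower and 0, 0, 1 and 1 higher, with medians of 0.020, -0.020, -0.22 and -0.19. In empty-vector and induced cells their share of lower genes was below that of all genes. TSFM, the exchange factor of the elongation factor TUFM, had -0.51, -0.62, -0.73 and -0.78, TUFM itself had -0.18, -0.36, -0.35 and -0.32, and the initiation factor MTIF3 had 0.25, 0.17, 0.46 and 0.63. Of 17 mitochondrial aminoacyl-tRNA synthetases, which load the transfer RNAs, 2, 5, 6 and 7 were lower and 1, 0, 0 and 0 higher, with medians of -0.13, -0.15, -0.26 and -0.22. The 2 in empty-vector cells were a smaller share than that of all genes. EARS2, for glutamate, had -0.70, -0.69, -1.18 and -1.18.

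Of 21 genes for the synthesis and stability of mitochondrial DNA and RNA, 6, 7, 12 and 11 were lower and 0, 0, 0 and 1 higher, with medians of -0.26, -0.15, -0.42 and -0.38. Beside these and the counts below stand 16.6%, 17.7%, 22.9% and 22.7% of all genes lower and 17.9%, 13.2%, 23.9% and 21.2% higher. C10orf2, the helicase also called TWNK, had -0.85, -0.84, -1.49 and -1.44, TRMT10C, a subunit of the RNase P of mitochondria, had -0.59, -0.61, -1.29 and -1.35, and TFAM, which packs and transcribes the mitochondrial genome, had -0.42, -0.42, -1.14 and -0.92. The 76 nuclear genes of the respiratory chain had smaller medians of -0.097, -0.12, -0.15 and -0.18, with 9, 12, 19 and 23 lower and 1, 1, 0 and 0 higher. Their share of lower genes was below that of all genes in empty-vector and shHUWE1 cells and near it in uninduced cells. The 13 messenger RNAs of the mitochondrial genome had 0.23, 0.56, -0.073 and 0.043, with 0, 0, 2 and 2 lower and 3, 11, 4 and 5 higher. The 79 proteins of the cytosolic ribosome had -0.12, -0.063, 0.012 and 0.025, with 2, 2, 3 and 0 lower and 0, 0, 2 and 3 higher. Side by side, the cytosolic and the mitochondrial ribosome thus had medians that were 0.13, 0.17, 0.33 and 0.30 apart, and this gap was not tested.

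**Figure D5:**
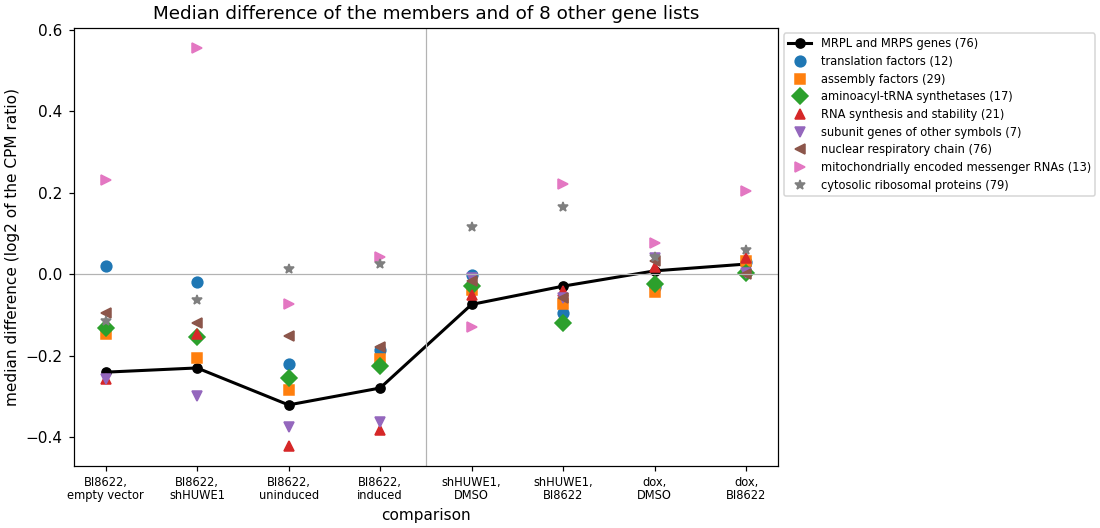
Median difference (vertical axis, log2 of the CPM ratio) of the 76 MRPL and MRPS genes (black line) and of 8 other gene lists (symbols, with the number of genes) in the 8 comparisons (horizontal axis; dox, doxycycline). In the BI8622 comparisons the members lie between -0.32 and -0.23, and the messenger RNAs of the mitochondrial genome range from -0.073 to 0.56.

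The genes whose pattern was nearest to the median of the members over all 8 differences, by the root mean square gap among 13062 genes, were NCAPD2, H3F3B, DHX38, EIF4A1P2 and PPIAP22. NCAPD2, a condensin subunit whose gene overlaps MRPL51 at its start on the opposite strand, was 0.025 away, with -0.27, -0.23, -0.35 and -0.30 in the BI8622 arms. EIF4A1P2 and PPIAP22 are pseudogenes whose reads may belong to their parent genes. The difference of a member followed its level little, with r = -0.11 over the 76 genes between the log2 mean level and the mean difference, or to the length of its transcript, with r = 0.018 over 74 genes. The 74 genes placed by the annotation lie on 21 chromosomes, with 8 on chromosome 2 and 7 each on chromosomes 1 and 11.

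Some members start next to a gene on the opposite strand, and the share of all genes that do was not counted. Within 1000 bp, 21 members had 22 such pairs with a gene that is no member, and MRPL46 and MRPS11 form 1 more pair, with -0.25 and -0.45. This comparison was chosen after the data were seen. In 21 of the 22 pairs the member had a mean BI8622 difference below 0, and in 10 the neighbour did, with r = 0.033 between both over the 22 pairs. MRPL18 (-0.84) starts 109 bp from TCP1 (-0.72), a subunit of the cytosolic chaperonin, and MRPL49 (-0.93) starts 6 bp from FAU (-0.20), a cytosolic ribosomal protein. MRPL43 (-0.19) stands next to TWNK (-1.15), and MRPL14 (-0.90) next to TMEM63B (0.38). Pairs such as MRPL14 and TMEM63B overlap at their starts, and without stranded counting their reads cannot be told apart there.

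The promoters of the members share letters that the choice of genes did not use. RefSeq promoters (GRCh38.p14, from 250 bases before to 50 after the start) were found for 67 members, and 4 motifs were searched on both strands. The letters CCGGAAG, the core bound by ETS factors, were in 28 (41.8%), beside 20.0% of the promoters of tested genes and 10.7% of all promoters. ATGGCGG, as bound by YY1, was in 23 (34.3%), beside 11.1% and 5.72%. CACGTG, the E-box to which MYC can bind, was in 6 (8.96%), beside 10.6% and 7.43%, and GCGCATGC, the core of the NRF1 motif, was in 6 (8.96%), beside 5.87% and 3.27%. Among the 15 members lower in all 4 arms, 6 held the ETS, 2 the YY1, 2 the E-box and 1 the NRF1 letters, and among the other 52 these were 22, 21, 4 and 5. A match is a description of the letters and not a binding site.

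To show these letters next to the expression values, the 80 bases upstream of the start are given for 3 members with the letters and 2 without, chosen after their values were seen. Capitals mark CCGGAAG or its reverse complement. MRPS34 (mean difference -0.72, 16:1773135-1773214, minus strand) holds it 3 times, MRPL48 (0.14, 11:73787794-73787873, plus strand) and MRPS31 (0.23, 13:40771191-40771270, minus strand) hold it once, and MRPL18 (-0.84, 6:159789732-159789811, plus strand) and MRPL12 (-0.70, 17:81703287-81703366, plus strand) do not hold it in this stretch.
MRPS34: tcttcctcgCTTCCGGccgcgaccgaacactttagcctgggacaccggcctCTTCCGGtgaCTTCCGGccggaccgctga
MRPL48: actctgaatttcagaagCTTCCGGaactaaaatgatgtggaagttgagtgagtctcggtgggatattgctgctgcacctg
MRPS31: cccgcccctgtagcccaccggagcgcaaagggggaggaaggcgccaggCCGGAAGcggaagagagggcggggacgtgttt
MRPL18: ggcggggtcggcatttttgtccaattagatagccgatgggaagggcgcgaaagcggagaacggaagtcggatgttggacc
MRPL12: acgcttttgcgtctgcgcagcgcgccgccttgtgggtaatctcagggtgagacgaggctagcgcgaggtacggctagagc
In these chosen members the letters stood upstream of MRPS34, with a mean difference below 0, and of MRPL48 and MRPS31, with means above 0. Because the members were chosen by their values, these stretches cannot show how the letters and the differences go together.

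The antisense RNA MRPL23-AS1 was low, and under the minimum of 5 CPM in most groups. Its level was 1.43 CPM with DMSO and 3.58 CPM with BI8622 in empty-vector cells, 1.11 and 2.77 CPM in shHUWE1 cells, 1.35 and 4.37 CPM in uninduced cells, and 1.97 and 5.80 CPM in induced cells. It was higher with BI8622 in each arm, by 1.32, 1.32, 1.69 and 1.56, whereas MRPL23 itself stayed between 26.1 and 34.4 CPM. Strand-specific counting is not stated, so reads of the antisense RNA and of overlapping genes cannot be told apart.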

How the data were processed

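Poly-A RNA of 16 libraries of Ls174T cells was sequenced, in 2 experiments of 4 groups with 2 libraries each. The 6 ChIP libraries were not analysed here. According to the methods and the notes with the samples, Bowtie 0.12.8 was used by the authors for alignment against hg19, and edgeR for the comparison of groups in pairs. For each of 4 pairs (HUWE1 experiment) or 5 pairs (MIZ1 experiment), the log2 CPM values deposited by the authors are means over both groups of a pair. The tables also hold the authors' log2 fold changes, p-values and adjusted p-values, which were not used.

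From the pair means, taken to the linear scale, the level of each group was solved by least squares in Python 3.11.15 (numpy 2.4.6, pandas 2.3.3), after a test on simulated data. The simulated pair means were made as means of CPM, so that test covers the solving step and not how the deposited means were formed. In the MIZ1 experiment, where 1 pair is redundant, the median residual was 0.00067 on the log2 scale, and no difference of a member moved by more than 0.026 when a pair was left out. In the HUWE1 experiment no pair is redundant. Each gene carried a constant of about 0.234 or 0.240 CPM. Read as 2 added reads, the default of the tool that the authors used, it gives 8.54e+06 and 8.34e+06 reads per library under this assumption, and Poisson counting errors were made from these. They cover counting error only, since no value per library was used.

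Repeated rows, 7 per table, were dropped. Genes with at least 5 CPM in every pair mean form the background. No test was run, and genes are named mainly by fixed rules (extremes of level and difference per subunit, members of known role, and the genes nearest to the median of the members). Some further genes, such as MRPL24, were named outside these rules. The members, lists and rules were chosen with earlier results of these data known. Coordinates are from GENCODE lifted to hg19, which placed 74 members. Alternatives were the reading of the means as logs, centring, other minimum levels and limits, subunit by place, means for medians, added subunit genes, and subtraction of the constant.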

Additional observations from a re-analysis of the deposited data

Results flagged for a closer look

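In 4 members both responses to BI8622 had one sign in the HUWE1 experiment and the opposite sign in the MIZ1 experiment. That is 5.26% of the members, beside 9.40% of all genes, a smaller share. MRPL23 had -0.13 and -0.082 in empty-vector and shHUWE1 cells and 0.18 and 0.16 in uninduced and induced cells, so that the mean of the MIZ1 minus that of the HUWE1 experiment was 0.28. MRPL38 had -0.32 and -0.25, then 0.045 and 0.048, a difference of 0.33. MRPL52 had -0.21 and -0.18, then 0.14 and 0.14, also a difference of 0.33. MRPS35 was the reverse case, with 0.11 and 0.14, then -0.15 and -0.041, a difference of -0.22. The difference was not tested in any of them, since no value per library was used, and single values such as those of MRPL38 in the MIZ1 experiment are smaller than their counting error of 0.082 to 0.084.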

How the results depend on the processing

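No value per library was used, so no replicate was left out and the counts have no replicate check. No paired analysis was possible because the tables give means over pairs of groups and no value per library. Medians of the members are set here against the counting error of a mean over the same genes (about 0.010), and differences between subunits or classes against that of such a difference (about 0.020). With the pair means read as means of logs, the median with BI8622 was -0.23 in empty-vector and -0.21 in shHUWE1 cells, that of doxycycline in BI8622 was 0.047, and conserved minus specific genes with doxycycline in DMSO was -0.023. With the median of all genes subtracted, the median was -0.19 in shHUWE1 and -0.34 in uninduced cells with BI8622 and -0.0021 with shHUWE1 in BI8622. Large minus small in empty-vector cells with BI8622 was -0.0017 by place in the ribosome, where it was -0.067 by symbol. As a difference of means it was -0.035 with doxycycline in DMSO and -0.0054 with doxycycline in BI8622. Each of these moved by more than that error, and the cause was not tested.

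Within the large subunit, conserved minus specific genes came to -0.066, -0.058 and -0.29 in empty-vector, shHUWE1 and uninduced cells with BI8622, and to 0.054 with doxycycline in BI8622. Within the small subunit it came to -0.15, -0.18 and -0.11 in the same arms, to -0.030 with shHUWE1 in DMSO and to -0.11 with doxycycline in BI8622. In the 4 BI8622 arms no median, no large minus small and no conserved minus specific value turned its sign under the alternatives run for it. With depletion, signs turned in 5 cases. In 3 of them, the conserved minus specific values of doxycycline in DMSO (means of logs), of shHUWE1 in DMSO (small subunit) and of doxycycline in BI8622 (large subunit) took the values above. In the others, with doxycycline in DMSO, the median was -0.0010 with means of logs, and large minus small was 0.0040 with subunit genes of other symbols added. Subtraction of the constant, added after the data were seen, moved each median and each of these differences by less than its counting error.

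The counts of members depend on the limit. With a limit of 15% higher or 13% lower, 43, 41, 44 and 47 members were lower in the BI8622 arms, beside 27.0%, 29.1%, 31.2% and 31.4% of all genes. In the depletion comparisons (shHUWE1 in DMSO and in BI8622, doxycycline in DMSO and in BI8622) 11, 9, 4 and 1 were lower, beside 11.3%, 16.1%, 6.40% and 10.6%. The members higher at this limit were 2, 2, 3 and 4 in the BI8622 arms, beside 27.2%, 21.95%, 32.6% and 29.7% of all genes, and 2, 1, 2 and 2 in the depletion comparisons, beside 14.7%, 10.3%, 7.72% and 6.87%. With a limit of 50% higher or 33% lower, 7, 6, 19 and 19 members were lower in the BI8622 arms, beside 4.92%, 5.09%, 10.9% and 10.2% of all genes, and 0 were higher. In the depletion comparisons 0 were lower at this limit, beside 0.449%, 0.759%, 0.104% and 0.293% of all genes. With a minimum of 1 CPM, the share of all genes lower past 0.32 in the depletion comparisons was 6.97%, 10.3%, 5.72% and 7.39%, and with no minimum it was 7.48%, 11.4%, 6.80% and 8.81%. With the pair means read as means of logs, 2 members were lower with shHUWE1 in DMSO and 3 with doxycycline in DMSO, where 3.29% of all genes were.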
